A study of Homo sapiens with 6 samples.

Results

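The data described here are the RNA levels of 10 genes of the NF-kB pathway, out of 61498 genes in the deposited tables, in 6 libraries of 3 human cell lines. The genes were chosen by symbol and fall into 4 roles: the canonical subunits NFKB1, RELA and REL, the non-canonical subunits NFKB2 and RELB, the inhibitors NFKBIA and TNFAIP3, and the TRAF3 axis of TRAF3, MAP3K14 and BIRC3. RPMI-8226-R, described by the submitters as a derivative resistant to bortezomib, RPMI-8226, its parent and a line of multiple myeloma, and NCI-BL2171 had 2 libraries each. The labels call all 3 lines B-lymphocytes and give no treatment for any of them, so they record no exposure to the drug during the experiment, and they do not say whether the derivative is a clone. Bortezomib inhibits the proteasome. Nothing in the labels says that the 2 libraries of a line come from separate cultures, so the p-values below measure only the spread between these libraries.

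NF-kB is a family of transcription factors that cells keep in the cytoplasm until a signal releases them. In the canonical arm the IKK kinases mark the inhibitor NFKBIA for destruction by the proteasome, which frees dimers of NFKB1 and RELA or REL. In the non-canonical arm the kinase MAP3K14, also called NIK, triggers the proteasome to trim the NFKB2 precursor, which then acts with RELB. In resting cells TRAF3 holds MAP3K14 for destruction by a complex with TRAF2, BIRC2 and BIRC3. NFKBIA, TNFAIP3, BIRC3, NFKB2 and RELB are themselves known NF-kB target genes, and myeloma is known for lesions of this pathway.

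Each table held estimated read counts and TPM (a level scaled by gene length and by the total of the library), and the libraries had between 23952370 and 29052199 estimated reads. Markers of plasma cells, the cell type from which myeloma arises, were at 1 TPM or more for 8 of 8 genes in RPMI-8226-R (summed level 4477 to 4610 TPM) and in RPMI-8226 (3115 to 3252 TPM), and for 2 of 8 in the libraries labelled NCI-BL2171 (47.9 to 50.5 TPM, with TNFRSF17, IRF4, JCHAIN and MZB1 at 0). B cell markers reached that level for 1 of 8 genes in RPMI-8226-R, 3 of 8 in RPMI-8226 and 1 of 8 in the libraries labelled NCI-BL2171. In those last libraries MS4A1, PAX5 and BLK stood at 0 and the 8 genes summed to 5.28 to 5.37 TPM. Erythroid markers, by contrast, were at 1 TPM or more there for 10 of 10 genes, with a summed level of 48451 to 50454 TPM, against 244 to 261 TPM in RPMI-8226-R and 115 to 116 TPM in RPMI-8226, each with 4 of 10. The markers thus go against the cell type on the NCI-BL2171 label, and these are called the libraries labelled NCI-BL2171 throughout. The part of this in the differences from them was not tested.

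Because several of these genes are known targets of the factor they encode or restrain, their start regions are shown first. The 300-base windows below run from 250 bases before to 50 bases after a RefSeq transcription start (GRCh38.p14), are written 5′ to 3′ on the strand of the gene, and carry in capitals every match to the NF-kB consensus on either strand. They belong to 4 of the genes that fell in RPMI-8226-R, as given below, and to NFKB1, which rose. BIRC3 lies at chr11:102317234-102317533 on the plus strand, TNFAIP3 at chr6:137867009-137867308 (plus), NFKB2 at chr10:102394328-102394627 (plus), NFKBIA at chr14:35404700-35404999 (minus) and NFKB1 at chr4:102501109-102501408 (plus).
BIRC3: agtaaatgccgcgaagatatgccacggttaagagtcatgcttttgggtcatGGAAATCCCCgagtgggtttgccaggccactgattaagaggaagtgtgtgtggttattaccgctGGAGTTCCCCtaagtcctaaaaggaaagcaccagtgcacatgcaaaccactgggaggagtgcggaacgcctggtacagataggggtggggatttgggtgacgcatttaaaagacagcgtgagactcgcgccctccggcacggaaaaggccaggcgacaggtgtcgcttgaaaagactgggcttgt
TNFAIP3: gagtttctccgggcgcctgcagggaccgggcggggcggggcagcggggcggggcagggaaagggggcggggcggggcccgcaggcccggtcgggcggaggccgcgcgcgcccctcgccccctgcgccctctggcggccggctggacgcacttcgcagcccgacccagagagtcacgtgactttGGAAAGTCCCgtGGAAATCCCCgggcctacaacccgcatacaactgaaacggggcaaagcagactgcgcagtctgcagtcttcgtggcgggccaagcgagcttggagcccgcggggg
NFKB2: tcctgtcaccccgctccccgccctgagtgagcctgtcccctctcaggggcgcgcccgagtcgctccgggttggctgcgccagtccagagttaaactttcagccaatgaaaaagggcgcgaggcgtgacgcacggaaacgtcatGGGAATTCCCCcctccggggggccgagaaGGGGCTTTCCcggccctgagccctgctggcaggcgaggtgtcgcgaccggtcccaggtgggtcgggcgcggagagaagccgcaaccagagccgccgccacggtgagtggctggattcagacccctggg
NFKBIA: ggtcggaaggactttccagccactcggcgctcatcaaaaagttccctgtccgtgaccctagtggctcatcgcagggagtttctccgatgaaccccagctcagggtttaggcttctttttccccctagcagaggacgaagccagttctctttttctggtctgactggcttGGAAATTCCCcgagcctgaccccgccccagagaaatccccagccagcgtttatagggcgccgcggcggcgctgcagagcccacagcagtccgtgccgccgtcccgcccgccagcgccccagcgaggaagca
NFKB1: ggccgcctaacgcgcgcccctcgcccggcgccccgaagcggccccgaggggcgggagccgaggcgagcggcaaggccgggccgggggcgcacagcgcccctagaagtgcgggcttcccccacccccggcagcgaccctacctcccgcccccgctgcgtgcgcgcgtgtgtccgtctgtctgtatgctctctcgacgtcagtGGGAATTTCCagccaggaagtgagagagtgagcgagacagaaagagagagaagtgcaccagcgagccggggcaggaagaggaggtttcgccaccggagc

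BIRC3 and TNFAIP3 each held 2 matches and this NFKB2 window 3, counting each base at which a match begins, so that 2 of the 3 overlap in a single run of capitals. NFKBIA and NFKB1 held 1 each. The RefSeq table had 13 windows for 9 of the 10 genes, and 8 of these 13 windows, from 7 of the 9 genes, held at least 1 match. RELA and MAP3K14 held none. Over all 35116 windows of the table, 5.91% held at least 1 match, 0.738% at least 2 and 0.0911% at least 3. A match describes the letters of a window and says nothing of binding in these cells.

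In the bortezomib-resistant line most of the 10 genes stood lower than in the parent. The largest falls were those of the inhibitors TNFAIP3 (35.1-fold) and NFKBIA (9.77-fold) and of BIRC3 (12-fold), of the TRAF3 axis. Both non-canonical subunits fell, 3.73-fold and 3.88-fold. NFKB1, a canonical subunit, rose 1.78-fold. RELA and MAP3K14, which encode the main activating subunit and the kinase of the non-canonical arm, did not pass the test. In all, 8 of the 10 genes passed, 1 higher and 7 lower, by edgeR's quasi-likelihood test at a Benjamini-Hochberg adjusted p under 0.05. The 2 lines differ widely: of the 20081 genes tested 65.6% passed in either direction, 28.5% higher and 37.2% lower, so a call as such is common. The same number of the 10 genes passed when the libraries labelled NCI-BL2171 were left out of the fit. The median log2 fold change was -1.61 over the 10 genes and -0.12 over all genes tested.

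**Figure D1:**
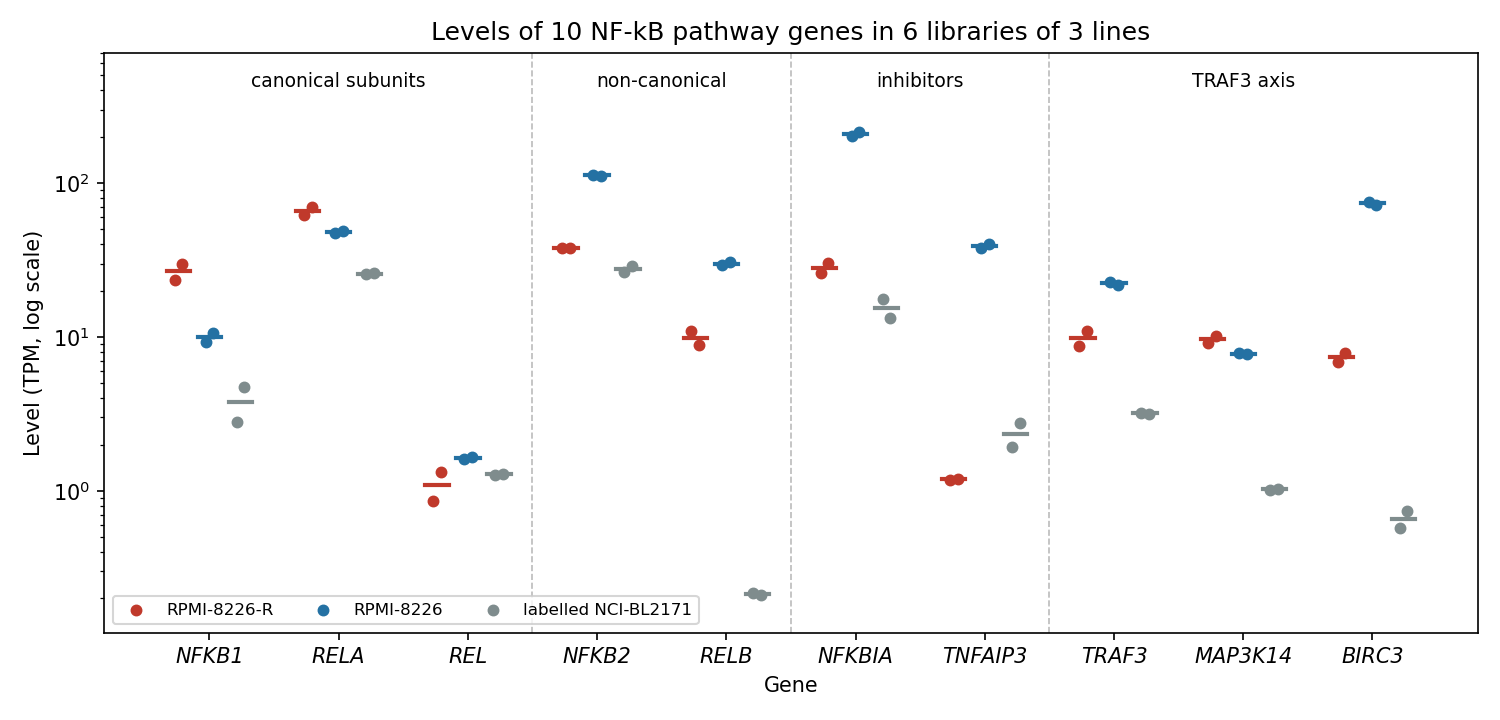
TPM (vertical axis, log scale) of the 10 genes in the 6 libraries; each point is 1 library, each bar the mean of the 2 libraries of a line, with RPMI-8226-R in red, RPMI-8226 in blue and the libraries labelled NCI-BL2171 in grey. TNFAIP3, NFKBIA and BIRC3 show the widest gaps between RPMI-8226-R and RPMI-8226, and NFKB1, RELA and MAP3K14 are the genes whose red points lie above the blue.

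NFKB1 (ENSG00000109320.13; chromosome 4, 102501329 to 102617302) encodes the precursor of the DNA-binding partner of RELA. It had 44.5 and 48.6 CPM (counts scaled to the TMM-adjusted library size) in RPMI-8226-R, against 25.8 and 26.6 CPM in RPMI-8226. Both libraries of the resistant line were higher than both of the parent, and the log2 fold change was 0.83 ± 0.09 (SE; edgeR adjusted p = 1.0e-07). On the TPM scale the gap was wider, at 23.6 and 29.9 TPM in RPMI-8226-R and 9.32 and 10.6 TPM in RPMI-8226, a 2.69-fold ratio of the means.

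RELA (ENSG00000173039.20; chromosome 11, 65653596 to 65663094), the subunit with the strong activation domain, had 121 and 128 CPM in RPMI-8226-R and 126 and 129 CPM in RPMI-8226. These values overlap, and the log2 fold change was -0.03 ± 0.07 (edgeR adjusted p = 0.693). Its direction depends on the scale: in TPM the libraries did not overlap, with 62.0 and 69.7 in RPMI-8226-R and 47.4 and 48.7 in RPMI-8226, and a limma-trend fit of log2(TPM + 1) gave 0.45 (adjusted p = 0.00416). That scale moves the median of all genes by 0.20 in this comparison, and with it the share of calls that are higher is 60.7% rather than 43.4%. REL (ENSG00000162924.15; chromosome 2, 60881521 to 60931610), a subunit prominent in lymphocytes, was the lowest of the 5 subunits in both lines, with 0.853 and 1.32 TPM in RPMI-8226-R and 1.60 and 1.67 TPM in RPMI-8226. In counts it had 8.35 and 12.3 CPM in RPMI-8226-R and 14.8 and 18.3 CPM in RPMI-8226. It fell by 0.67 ± 0.16 on the log2 scale (edgeR adjusted p = 0.00132), with every library of the resistant line below every library of the parent, but did not pass on log2(TPM + 1), where the value was -0.34 (limma-trend adjusted p = 0.0883).

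The non-canonical subunits both fell. NFKB2 (ENSG00000077150.20; chromosome 10, 102394110 to 102402529) had 38.5 and 38.4 CPM in RPMI-8226-R, against 144 and 142 CPM in RPMI-8226. The libraries of a line lay close together and far from those of the other, and the log2 fold change was -1.90 ± 0.07, a 3.73-fold lower level (edgeR adjusted p = 3.4e-15). RELB (ENSG00000104856.14; chromosome 19, 45001430 to 45038198), its partner, had 12.2 and 12.9 CPM in RPMI-8226-R, against 48.7 and 48.5 CPM in RPMI-8226. This gene too separated the lines without overlap and fell by nearly the same amount, -1.96 ± 0.11 on the log2 scale (3.88-fold lower; edgeR adjusted p = 9.1e-13). In these bulk samples fewer cells that make a transcript and less transcript per cell cannot be told apart, here or below.

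**Figure D2:**
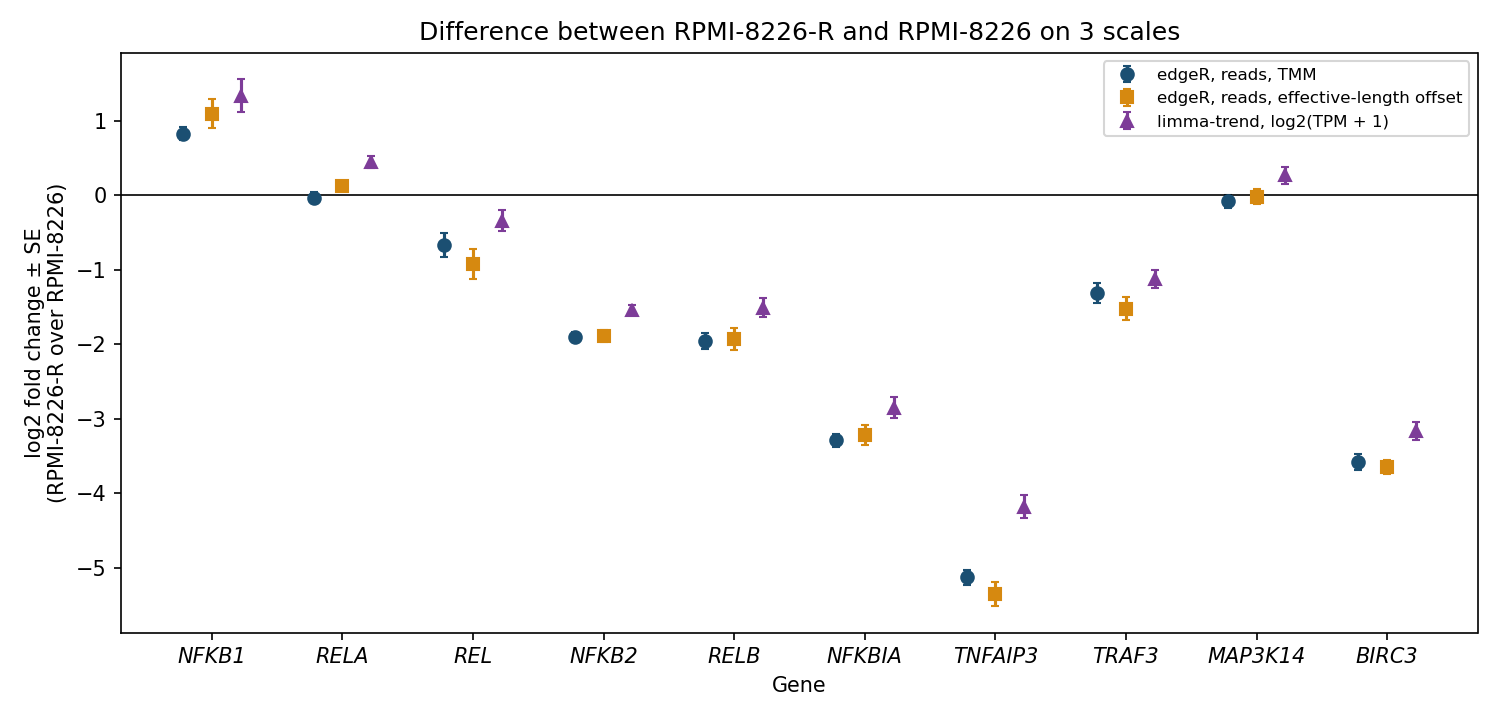
Log2 fold change of RPMI-8226-R over RPMI-8226 (vertical axis, with SE bars) of the 10 genes on 3 scales: edgeR on reads, edgeR on reads with the effective length of the gene as an offset, and limma-trend on log2(TPM + 1). The 7 genes that fell in the edgeR fit lie below 0 on all 3, and NFKB1 lies above 0 on all 3. RELA and MAP3K14 lie near 0 for edgeR on reads, with a sign that depends on the scale. On log2(TPM + 1) both lie above 0, and RELA passed there.

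The balance of the arms was read as a ratio of subunits within a library. The ratio of NFKB2 to NFKB1 in TPM was 1.60 and 1.26 in RPMI-8226-R and 12.1 and 10.5 in RPMI-8226. The lines did not overlap, and the mean log2 ratio was 2.99 lower in the resistant line, a 7.93-fold smaller ratio, where the larger SD of the 2 lines was 0.24. The ratio of RELB to RELA was 0.175 and 0.128 in RPMI-8226-R and 0.616 and 0.633 in RPMI-8226, a difference of -2.06 on the log2 scale, or 4.17-fold smaller (larger SD 0.32). Both ratios were lower in the resistant line: on the TPM scale of the ratios NFKB2 was lower and NFKB1 higher, and RELB was lower and RELA higher, by 1.37-fold in mean TPM. In the libraries labelled NCI-BL2171 the 2 ratios lay apart: NFKB2 over NFKB1 was 9.45 and 6.11, nearer to RPMI-8226, whereas RELB over RELA was 0.00848 and 0.00807, below both myeloma lines. With 2 libraries against 2 no exact permutation test can pass, and these ratios are a description.

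**Figure D3:**
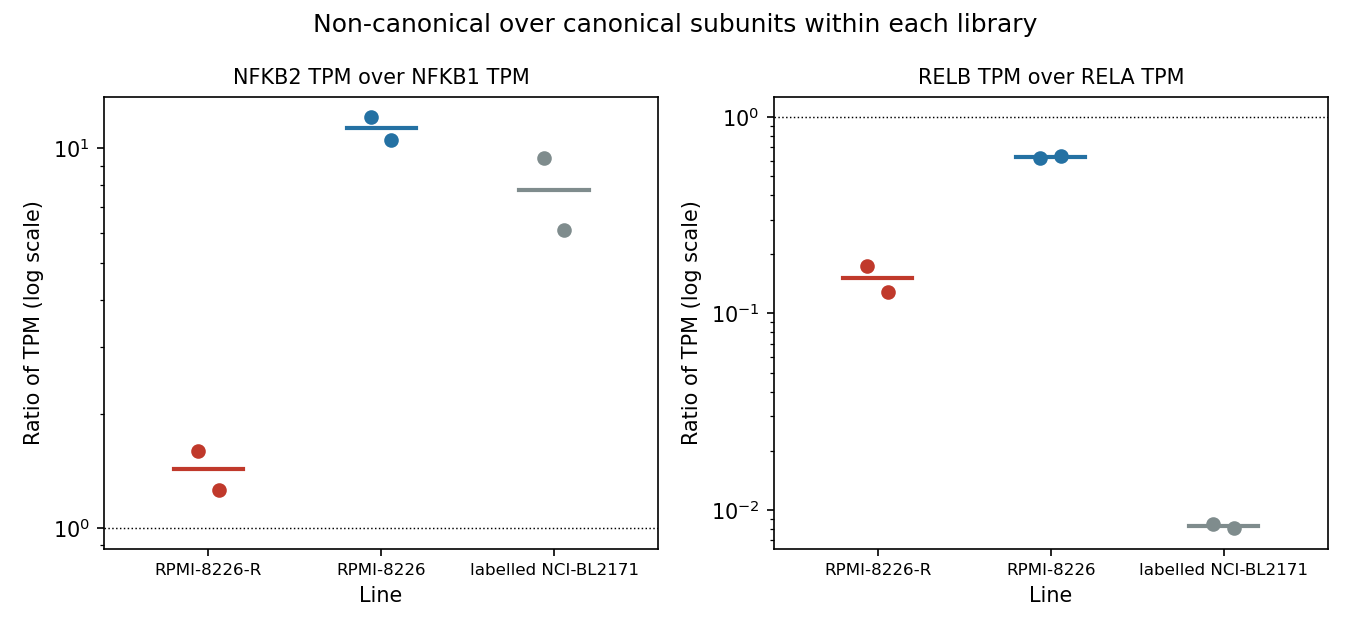
Ratio of TPM within each library (vertical axes, log scale), NFKB2 over NFKB1 on the left and RELB over RELA on the right; each point is 1 library and each bar the mean of a line, and the dotted line marks equal TPM. In RPMI-8226-R the NFKB2 ratio lies near 1, at 1.60 and 1.26, and is the lowest of the 3 lines, while the RELB ratio lies between the other lines.

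Both inhibitors fell. TNFAIP3 (ENSG00000118503.16; chromosome 6, 137867188 to 137883312) encodes A20, a ubiquitin-editing enzyme that ends canonical signalling. It had 4.01 and 4.68 CPM in RPMI-8226-R, against 150 and 155 CPM in RPMI-8226. The resistant line was low in both libraries, 35.1-fold below the parent, and its log2 fold change was -5.13 ± 0.10 (edgeR adjusted p = 5.1e-20). NFKBIA (ENSG00000100906.11; chromosome 14, 35401511 to 35404749), the inhibitor that holds RELA dimers in the cytoplasm and is resynthesised when they reach the nucleus, had 24.3 and 23.6 CPM in RPMI-8226-R, against 229 and 239 CPM in RPMI-8226. In TPM it had 26.1 and 30.2 in RPMI-8226-R and, as the most abundant of the 10 genes in the parent, 202 and 216 in RPMI-8226. In counts it fell 9.77-fold, without overlap (log2 fold change -3.29 ± 0.09, edgeR adjusted p = 5.3e-17).

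Within the TRAF3 axis the adaptor and the ligase fell and the kinase did not pass. BIRC3 (ENSG00000023445.16; chromosome 11, 102317450 to 102339403), a ubiquitin ligase that marks MAP3K14 for destruction and is also a known NF-kB target, had 22.8 and 30.0 CPM in RPMI-8226-R, against 320 and 313 CPM in RPMI-8226. It fell by 3.58 ± 0.11 on the log2 scale (edgeR adjusted p = 1.0e-12), with no overlap. TRAF3 (ENSG00000131323.16; chromosome 14, 102777476 to 102911500), the adaptor that brings MAP3K14 to the ligases, had 5.64 and 5.37 CPM in RPMI-8226-R, against 13 and 14.4 CPM in RPMI-8226. It too was lower in both libraries of the resistant line, by 1.31 ± 0.14 on the log2 scale (edgeR adjusted p = 5.0e-08), and the direction was the same in TPM, at 8.77 and 10.9 in RPMI-8226-R and 22.8 and 21.9 in RPMI-8226. MAP3K14 (ENSG00000006062.18; chromosome 17, 45263119 to 45317145) had 38.7 and 39.7 CPM in RPMI-8226-R and 41.2 and 41.9 CPM in RPMI-8226. The libraries did not overlap, but the log2 fold change of -0.08 ± 0.09 did not pass (edgeR adjusted p = 0.413), and in TPM the resistant line was the higher, with 9.18 and 10.1 against 7.84 and 7.76.

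MAP3K14 overlaps MAP3K14-AS1, a non-coding gene on the other strand, and whether the counting used the strand is not given in the sources used here, so reads of the 2 genes cannot be told apart where they overlap. MAP3K14-AS1 had 87 and 112 reads in RPMI-8226-R and 160 and 114 in RPMI-8226, against 1043 to 1146 reads of MAP3K14. In the libraries labelled NCI-BL2171 it had 273 and 256 reads, more than the 128 and 112 of MAP3K14. TNFAIP3 likewise overlaps WAKMAR2, which had 22 and 9 reads in RPMI-8226-R and 40 and 30 in RPMI-8226. Both non-coding genes passed as lower (log2 fold changes -0.56 ± 0.20 and -1.25 ± 0.45, edgeR adjusted p = 0.0191 and 0.0188), and both lost the call under several alternatives, DESeq2 among them. RELA-DT, the third such gene tested, did not pass. Of 6 protein-coding genes near TRAF3, BIRC3 and MAP3K14 on their chromosomes, 3 fell and 3 did not pass, where 37.2% of all genes tested fell. YAP1, which fell, passed the low-count filter only through RPMI-8226, so only a fall could be called. RCOR1 and CDC42BPB, to either side of TRAF3, had log2 fold changes of -0.08 ± 0.09 and -0.04 ± 0.15 that did not pass (edgeR adjusted p = 0.455 and 0.857). TMEM123, beyond BIRC2 from BIRC3, fell by 0.87 ± 0.06 and HEXIM1, near MAP3K14, by 0.54 ± 0.08 (edgeR adjusted p = 4.5e-11 and 3.4e-06); HEXIM1 did not pass on log2(TPM + 1).

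Against the libraries labelled NCI-BL2171, both myeloma lines carried more RNA of most of the 10 genes. In RPMI-8226-R 9 of the 10 genes passed, 7 higher and 2 lower, where 77.4% of all genes tested passed, 39.2% higher and 38.2% lower. In RPMI-8226 all 10 passed in counts, 9 higher and 1 lower, where 76.7% of all genes tested passed, 41.1% higher and 35.6% lower. The median log2 fold change of the 10 genes was 0.94 in RPMI-8226-R, against 0.00 over all genes, and 2.68 in RPMI-8226, against 0.09. These comparisons share the NCI-BL2171 libraries, and their values stand side by side without a measure of likeness.

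In counts RELB and BIRC3 set the myeloma lines furthest from the libraries labelled NCI-BL2171. RELB had 12.2 and 12.9 CPM in RPMI-8226-R and 48.7 and 48.5 CPM in RPMI-8226, against 0.440 and 0.483 CPM in the libraries labelled NCI-BL2171, which rest on 12 reads each. The log2 fold change was 4.75 ± 0.19 in RPMI-8226-R and 6.71 ± 0.17 in RPMI-8226 (edgeR adjusted p = 2.4e-15 and 8.0e-19). BIRC3 was 3.19 ± 0.15 higher on the log2 scale in RPMI-8226-R and 6.78 ± 0.14 higher in RPMI-8226 (edgeR adjusted p = 9.8e-11 and 4.8e-15) than in the libraries labelled NCI-BL2171, which had 2.53 and 3.26 CPM. MAP3K14 was higher too, with log2 fold changes of 3.09 ± 0.11 in RPMI-8226-R and 3.17 ± 0.11 in RPMI-8226 (edgeR adjusted p = 2.3e-16 and 1.5e-16), and every myeloma library lay above the 4.70 and 4.51 CPM of the libraries labelled NCI-BL2171. How far these MAP3K14 values hold reads of MAP3K14-AS1, the more abundant of the 2 genes in the libraries labelled NCI-BL2171, was not tested.

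Among the canonical subunits, NFKB1 was 2.79 ± 0.11 higher on the log2 scale in RPMI-8226-R and 1.96 ± 0.11 higher in RPMI-8226 (edgeR adjusted p = 9.6e-16 and 7.4e-13) than in the libraries labelled NCI-BL2171, which had 6.61 and 6.85 CPM. RELA was 1.15 ± 0.07 and 1.19 ± 0.07 higher on the log2 scale in RPMI-8226-R and RPMI-8226 (edgeR adjusted p = 1.2e-12 and 8.6e-13), against 55.3 and 56.7 CPM there. REL in RPMI-8226-R overlapped with the 10.9 and 10.4 CPM there (log2 fold change -0.04 ± 0.17, edgeR adjusted p = 0.845). In RPMI-8226 it was 0.64 ± 0.16 higher (edgeR adjusted p = 0.00175), a call that was lost on log2(TPM + 1).

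NFKB2 and the 2 inhibitors were closer to the libraries labelled NCI-BL2171 in RPMI-8226-R than in RPMI-8226, as were RELB, BIRC3 and REL above. NFKB2 was 0.30 ± 0.08 higher on the log2 scale in RPMI-8226-R and 2.20 ± 0.07 higher in RPMI-8226 (edgeR adjusted p = 0.00132 and 8.6e-17), against 32.3 and 30.3 CPM in those libraries. NFKBIA was 0.72 ± 0.10 and 4.0 ± 0.10 higher in RPMI-8226-R and RPMI-8226 (edgeR adjusted p = 2.0e-06 and 8.9e-19), against 16.5 and 12.6 CPM. Of NFKB2 and the 2 inhibitors TNFAIP3 alone crossed over. It fell by 0.73 ± 0.12 in RPMI-8226-R and was 4.40 ± 0.09 higher in RPMI-8226 (edgeR adjusted p = 2.0e-05 and 3.5e-20), against 7.08 and 7.33 CPM.

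TRAF3 gave opposite answers in counts and in TPM. It had 152 and 155 reads in RPMI-8226-R, 350 and 364 in RPMI-8226, and 527 and 454 in the libraries labelled NCI-BL2171, so that in counts both myeloma lines were lower, by 1.77 ± 0.14 and 0.46 ± 0.13 on the log2 scale (edgeR adjusted p = 1.7e-10 and 0.00273). In TPM both were higher than the 3.20 and 3.18 TPM of the libraries labelled NCI-BL2171. The tables give TRAF3 an effective length, the length over which reads are counted as able to start, of 657 and 539 bases in RPMI-8226-R, 470 and 520 bases in RPMI-8226, and 5632 and 5542 bases in the libraries labelled NCI-BL2171. The log2 ratio of effective lengths was -3.22 in RPMI-8226-R and -3.50 in RPMI-8226. Only 9 of the 20081 genes tested (0.0448%) had so large a ratio in the RPMI-8226-R comparison, and 6 (0.0299%) in the RPMI-8226 comparison, TRAF3 included. With the effective length as an offset in edgeR, the log2 fold changes against the libraries labelled NCI-BL2171 were 1.49 in RPMI-8226-R and 3.01 in RPMI-8226 (adjusted p = 2.7e-05 and 2.4e-07).

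The GENCODE 29 annotation lists 9 transcripts of TRAF3, of which 4 are under 1000 bases long (374 to 870), 3 are of intermediate length and 2 are far longer (7640 and 7700 bases). The tables give a single effective length per gene and library and no values per transcript. The direction of TRAF3 against the libraries labelled NCI-BL2171 is therefore given on both scales without a choice between them. Between RPMI-8226-R and RPMI-8226 the mean effective lengths were closer, at 598 and 495 bases (log2 ratio 0.27). Of the genes tested 19.8% had so large a ratio in this comparison. Here TRAF3 fell on each scale.

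**Figure D4:**
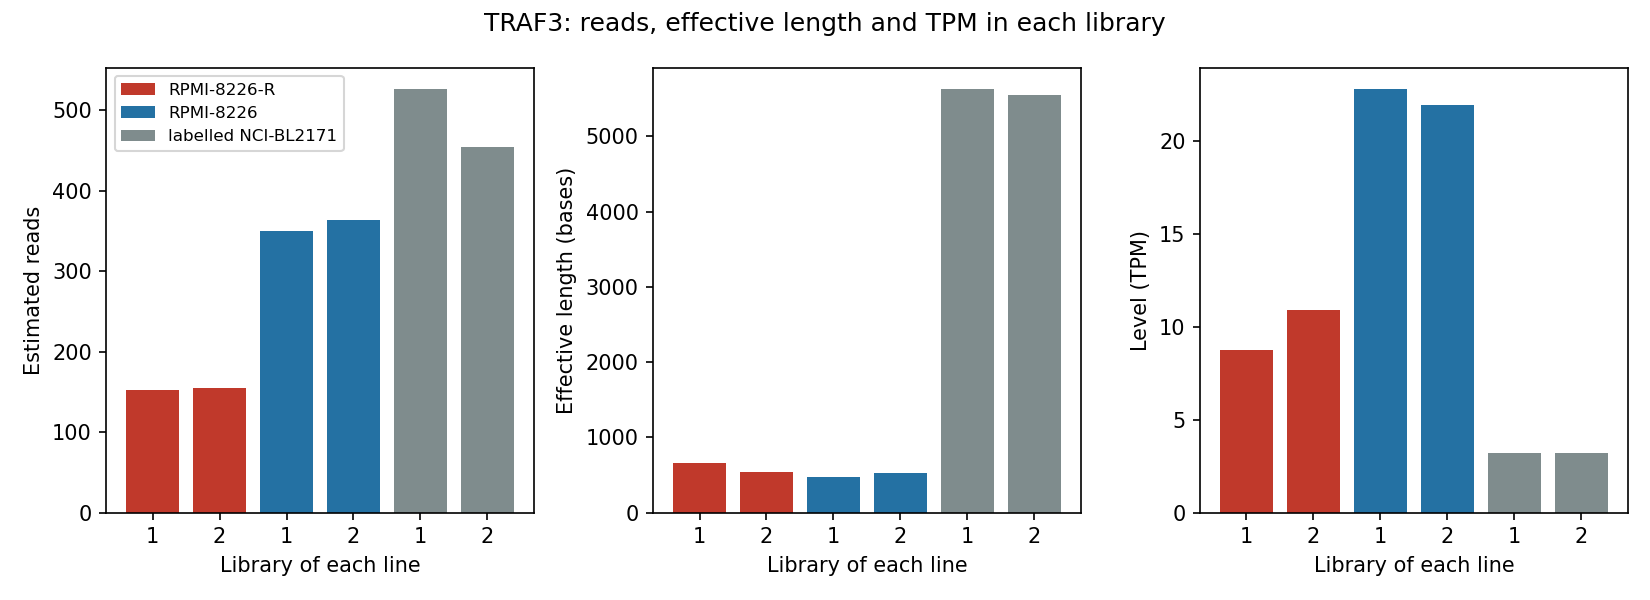
TRAF3 in each library: estimated reads (left), effective length in bases (middle) and TPM (right), with bars from 0 for libraries 1 and 2 of RPMI-8226-R (red), RPMI-8226 (blue) and the libraries labelled NCI-BL2171 (grey). The grey bars are the highest in reads and the lowest in TPM, and their effective lengths of 5632 and 5542 bases stand far above those of the myeloma lines, 470 to 657 bases.

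Within each line the 10 genes ranked differently in TPM. In RPMI-8226-R RELA led at 65.9 TPM (mean of 2), then NFKB2 at 37.7, then NFKBIA at 28.2 and NFKB1 at 26.8, whose libraries overlapped. RELB, TRAF3 and MAP3K14 followed at 9.88, 9.82 and 9.63 TPM without separating from each other, then BIRC3 at 7.36, and TNFAIP3 and REL closed at 1.19 and 1.09 TPM, again with overlap. In RPMI-8226 NFKBIA led at 209 TPM, followed by NFKB2 at 112 and BIRC3 at 73.7, and every neighbour in its order was separated by both libraries. RELA, at 48.0 TPM, was next there, and then TNFAIP3, at 38.9 TPM. In the libraries labelled NCI-BL2171 NFKB2 and RELA led at 27.6 and 25.8 TPM, and BIRC3 and RELB closed at 0.653 and 0.213 TPM. In that order only NFKB1 and TRAF3, at 3.76 and 3.19 TPM, overlapped. The place of TRAF3 in each order rests on the effective lengths given above. These were 657 and 539 bases in RPMI-8226-R, 470 and 520 in RPMI-8226, and 5632 and 5542 in the libraries labelled NCI-BL2171.

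The genes whose levels ran most like NFKB1 over the 6 libraries, by the Euclidean distance of log2(TPM + 1) centred on its mean among 12532 genes, were PURPL (0.27), ADCY7 (0.28) and FAHD1 (0.33). PURPL is a long non-coding RNA and ADCY7 an adenylate cyclase, which averaged 66.6 TPM in RPMI-8226-R, 25.1 in RPMI-8226 and 9.73 in the libraries labelled NCI-BL2171. Nearest to NFKB2 were BMF (0.11), a gene of the BCL2 family, TDRKH-AS1 (0.21) and CFLAR (0.25). CFLAR blocks caspase activation at death receptors and is itself on the target list below. It averaged 51.0 TPM in RPMI-8226-R, 131 in RPMI-8226 and 32.6 in the libraries labelled NCI-BL2171. In counts the resistant line had 1.63-fold less CFLAR than its parent, but 3.73-fold less NFKB2. The mean effective length of CFLAR was 1439 bases in the resistant line and 695 bases in the parent. For NFKB2 it was 1078 and 1036 bases. The distance was taken in TPM, which divides by these lengths. The 6 points behind each distance come from 3 lines, so the measure mostly ranks 3 levels.

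Around the 10 genes, the other inhibitors of the IkB family fell in RPMI-8226-R against RPMI-8226, 5 of 5 (median log2 fold change -1.02). Of all genes tested 37.2% fell in this comparison. NFKBIZ and BCL3, nuclear members of the family that act with NF-kB on its target genes rather than holding it in the cytoplasm, fell most. NFKBIZ had 1.00 and 1.39 CPM in RPMI-8226-R, against 53.9 and 54.9 CPM in RPMI-8226 (log2 fold change -5.50 ± 0.16, edgeR adjusted p = 4.1e-17), and BCL3 had 5.79 and 6.13 CPM, against 65.6 and 61.8 CPM (-3.42 ± 0.11, edgeR adjusted p = 2.7e-16). NFKBIE, a cytoplasmic inhibitor, fell 1.90-fold. NFKBIB fell by 0.32 ± 0.09 in counts (edgeR adjusted p = 0.00308) but had the opposite sign with the effective-length offset (0.16) and on log2(TPM + 1) (0.46). NFKBID fell by 1.02 ± 0.28 (edgeR adjusted p = 0.0029) and lost the call on log2(TPM + 1) (limma adjusted p = 0.0903) and without RPMI-8226 replicate 1 (edgeR adjusted p = 0.0537). On log2(TPM + 1) 3 of the 5 fell and 1, NFKBIB, rose.

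The IKK kinases, which act upstream, all rose in counts, 5 of 5 (median log2 fold change 0.50), though by little. A rise passed in 28.5% of all genes tested. IKBKB, the main kinase of NFKBIA, had 20.3 and 25.4 CPM in RPMI-8226-R, against 12.3 and 11.9 CPM in RPMI-8226 (1.88-fold higher, edgeR adjusted p = 1.8e-06). IKBKG, the regulatory subunit, rose 1.49-fold and CHUK, another of the IKK kinases, 1.37-fold. With the effective-length offset 2 of the 5 passed, and CHUK, IKBKE and TBK1 did not.

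Of 20 adaptors and ubiquitin ligases 10 rose, 6 fell and 4 did not pass (median log2 fold change 0.21). Among all genes tested 65.6% passed, 28.5% higher and 37.2% lower, so as many calls are common. On log2(TPM + 1) 12 rose and 3 fell, and TRAF6, RBCK1 and TRADD, lower in counts, did not pass. RIPK1, a kinase at tumour necrosis factor receptors, rose 6.70-fold (24.9 and 26 CPM in RPMI-8226-R, against 3.46 and 4.15 CPM in RPMI-8226), and MYD88, the adaptor of Toll-like receptors, 2.84-fold. TRAF1 fell 4.96-fold (17.1 and 28.2 CPM in RPMI-8226-R, against 111 and 115 CPM in RPMI-8226), and BCL10, of the complex that links antigen receptors to IKK, 1.86-fold. The partners of TRAF3 differed: BIRC2, the neighbour and close relative of BIRC3, had 36.9 and 42.2 CPM in RPMI-8226-R, against 69.8 and 70.9 CPM in RPMI-8226 (log2 fold change -0.83 ± 0.08, edgeR adjusted p = 1.1e-08), whereas TRAF2 had 35.1 and 35.2 CPM in RPMI-8226-R and 35.4 and 34.5 CPM in RPMI-8226 (0.01 ± 0.09, edgeR adjusted p = 0.969). TRAF2 passed as higher on log2(TPM + 1), at 0.37.

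Of 8 deubiquitinases and partners of TNFAIP3, 1 rose, 5 fell and 2 did not pass (median log2 fold change -0.59). Among all genes tested 28.5% rose and 37.2% fell. TAX1BP1 and TNIP1, which bind A20, fell 2.21-fold and 1.95-fold, and the deubiquitinase CYLD fell 1.87-fold (edgeR adjusted p = 2.0e-09), while OTULIN, which removes linear ubiquitin chains, rose 1.34-fold. These changes were far smaller than that of TNFAIP3 itself. On log2(TPM + 1) 1 of the 8 rose and 4 fell, with a median of -0.12, and TNIP2, lower in counts, did not pass.

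Receptors of the tumour necrosis factor superfamily moved both ways: of 11, 9 were tested and had reads in these 2 lines, and 3 of them rose, 5 fell and 1 did not pass (median log2 fold change -0.68). Among all genes tested 28.5% rose and 37.2% fell. CD40, which signals to both arms, had 0.482 and 0.762 CPM in RPMI-8226-R, against 16.5 and 16.6 CPM in RPMI-8226, a 26.2-fold lower level (edgeR adjusted p = 4.3e-13). TNFRSF12A fell 2.58-fold, and TNFRSF1A and TNFRSF8 rose 3.61-fold and 2.29-fold. The receptors of BAFF and APRIL, growth factors of plasma cells, were uneven. TNFRSF17 (BCMA) rose 1.66-fold (edgeR adjusted p = 0.00107), TNFRSF13B (TACI) was at -0.15 ± 0.10 on the log2 scale and did not pass (edgeR adjusted p = 0.178), and TNFRSF13C (BAFF receptor) fell by 0.68 ± 0.25 (edgeR adjusted p = 0.0225), a call that 6 alternatives did not keep, among them DESeq2 and the fit without RPMI-8226-R replicate 1, where the value was -0.29. TNFRSF11A fell by 1.22 ± 0.26 (edgeR adjusted p = 6.2e-04), which did not pass with DESeq2 (adjusted p = 0.205) or on log2(TPM + 1) (limma adjusted p = 0.0505). LTBR, the lymphotoxin receptor, had no reads in any library of the 2 myeloma lines, against 57.3 and 45.0 TPM in the libraries labelled NCI-BL2171. Of 9 ligands, 3 were tested and had reads in the myeloma lines, and all 3 fell in counts: LTB, a ligand of LTBR, which fell 3.47-fold (11 and 12 CPM in RPMI-8226-R, against 37.7 and 42.1 CPM in RPMI-8226; edgeR adjusted p = 2.4e-11), TNFSF13 (APRIL), which fell 1.73-fold, and TNFSF13B (BAFF), with 0 and 1 reads in RPMI-8226-R, against 19 and 17 in RPMI-8226. Of these LTB passed on log2(TPM + 1) and the other 2 did not (limma adjusted p = 0.115 and 0.0856). In counts a fall passed in 37.2% of all genes tested.

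Of 25 known NF-kB target genes, a list chosen with earlier results of these data known, 23 were tested. Of these 20 fell, 2 rose and 1 did not pass, where 37.2% of all genes tested fell and 28.5% rose. CCL19, CCL22, BCL2A1, EBI3, CCL3 and VCAM1 passed the low-count filter only through RPMI-8226, so only a fall could be called. Over the 23 genes the median log2 fold change was -4.64, against -0.12 over all genes. With the 6 genes without a read in a line held at their bound it was -3.71. CD80, a costimulatory ligand for T cells, and the chemokine CCL19 had no reads in RPMI-8226-R and 12.7 and 9.53 CPM (CD80) and 9.82 and 8.42 CPM (CCL19) in RPMI-8226. Set against a floor of 3 reads per library they were at least 103-fold and 84.7-fold lower. Among targets with more than 3 reads in each line, the largest falls were those of the chemokine CCL22, with 1 and 6 reads in RPMI-8226-R, against 6292 and 6272 in RPMI-8226 (1853-fold), of EBI3, a cytokine subunit, with 4 and 8 reads, against 2078 and 1935 (350-fold), and of the chemokine CXCL10, with 258 and 247 reads, against 34185 and 34070 (145-fold). CXCL8, a chemokine that is also a known target, went the other way, with 82.1 and 81.7 CPM in RPMI-8226-R, against 38.5 and 38.7 CPM in RPMI-8226 (2.12-fold higher, edgeR adjusted p = 9.7e-10). BCL2L1, a survival gene, rose by 0.15 ± 0.06 on the log2 scale (edgeR adjusted p = 0.0399), a call that 6 alternatives did not keep. Against the libraries labelled NCI-BL2171, 14 of the 23 rose and 5 fell in RPMI-8226-R, and 1 with reads did not pass. The other 3 had no reads in RPMI-8226-R or in those libraries, so no call was possible. In RPMI-8226 21 of the 23 rose and 2 did not pass. Of all genes tested 39.2% were higher and 38.2% lower in RPMI-8226-R, and 41.1% were higher in RPMI-8226. In RPMI-8226 the median log2 fold change of the targets was then 7.09, or 5.41 with 6 genes at their bound. Targets that passed the filter only through RPMI-8226 could there only be called as higher.

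**Figure D5:**
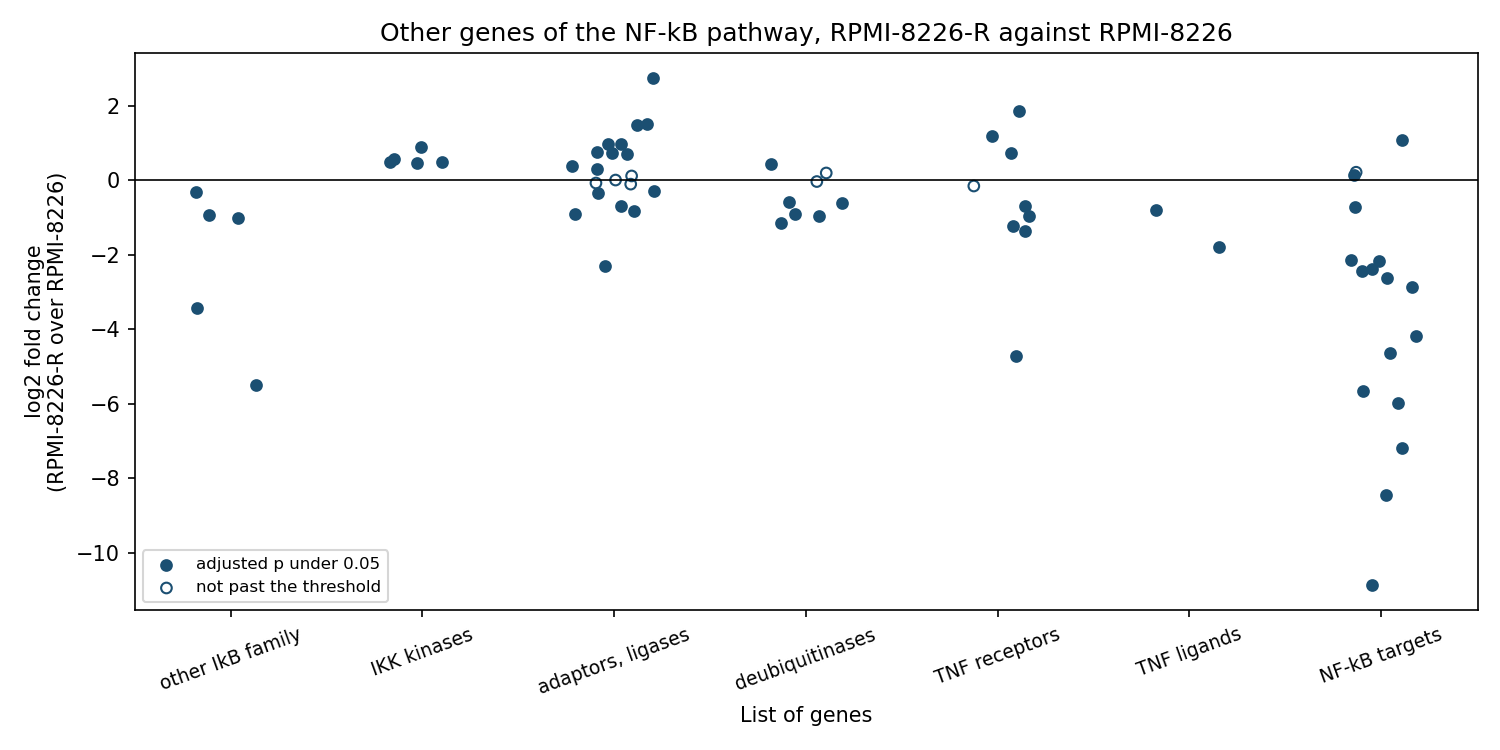
Log2 fold change of RPMI-8226-R over RPMI-8226 (vertical axis, edgeR on reads) of 66 genes in 7 lists of the pathway; each point is 1 gene, filled where the adjusted p is under 0.05, and genes without more than 3 reads in a line are left out. The points of the IkB family and most NF-kB targets lie below 0, those of the 5 IKK kinases lie just above 0, and adaptors and receptors lie on both sides.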

How the data were processed

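RNA of 6 libraries, 2 per line, was depleted of ribosomal RNA before library preparation (per the labels' protocols). The authors deposited a table per library with estimated counts, TPM and 2 other columns, the gene's length and effective length in bases, and the submitters' processing notes name GRCh38.p13. Which quantifier and annotation made them, and whether strand was used, is not given in the sources used here. Each table had 61544 rows, and 46 copies of genes on the Y chromosome's pseudoautosomal regions were merged with their originals, leaving 61498 genes, of which 61399 matched a symbol. Gene positions are from GENCODE 29 (GRCh38), matched on IDs without version.

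Estimated counts were rounded and tested with edgeR 4.0.16 (R 4.3.3): TMM factors, a filter on low counts (minimum count 10, minimum total 15), the robust quasi-likelihood F test with 1 coefficient per line over all 6 libraries (3 residual degrees of freedom, biological coefficient of variation 6.81%), two-sided, with Benjamini-Hochberg adjustment over 20081 genes at 0.05. SE is the log2 fold change over the square root of F. All 10 members passed the filter. The fits were tried on simulated data, in which few genes changed and effective lengths were the same in every library, unlike here. Alternatives were DESeq2 1.42.0, limma 3.58.1 (voom, and trend on log2(TPM + 1)), upper-quartile factors, an effective-length offset, other filters, only the lines compared, a replicate block, and each library left out. Files of the 2 libraries of a line differed by more than sampling noise (chi-square per gene 3.47 to 11).

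The members and all gene lists were chosen with earlier results of these data known, so no list is evidence independent of them. Named were all members, up to 2 rises and 2 falls of largest fold per list among genes past the threshold that had a mean of 1 TPM or more in the line where they were higher, without overlap between libraries, and 17 components whatever their change. Folds were ranked as fitted, which for genes without reads depends on the prior count. NFKBIB, NFKBID, RELA-DT, IKBKE, TBK1, TRAF6, RBCK1, TRADD, TNFRSF11A, TNFSF13B, CCL22, EBI3 and CXCL10 were added after their values were seen. T cell and myeloid markers, also listed, summed to 4.89 to 5.22 and 2.95 to 4.32 TPM in RPMI-8226-R, 2.25 to 3.19 and 4.06 to 5.82 TPM in RPMI-8226, and 3.90 to 6.71 and 51.4 to 53.2 TPM in the libraries labelled NCI-BL2171. Floors of 3 reads cover counting error only.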

Additional observations from a re-analysis of the deposited data

How the results depend on the processing

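Of 390 member values recomputed under alternatives, 377 kept their direction and side of the threshold, 2 lost the call and 11 changed sign. The number of members called was 8 in RPMI-8226-R against RPMI-8226, 9 in RPMI-8226-R against the libraries labelled NCI-BL2171 and 10 in RPMI-8226 against them under every alternative, except 9 in the last with limma-trend. The total called over all genes stayed within 1.5 times, but limma-trend called 4557 genes lower in RPMI-8226-R against RPMI-8226, against 7461, and 7030 higher, against 5716. RELA, RPMI-8226-R against RPMI-8226, changed sign with DESeq2 (0.02), limma-trend (0.45), the offset (0.13) and only the lines compared (0.05), and ranged from -0.06 to 0.01 with each library left out. With limma-trend RELA also passed as higher in that comparison, which is counted above only as a change of sign. REL lost its call, so the 8 members called there were not the same 8. Of the 8, 2 were then higher, NFKB1 and RELA. MAP3K14 was 0.27 there with limma-trend. REL was -0.34 with limma-trend in that comparison and 0.21 in RPMI-8226 against the libraries labelled NCI-BL2171, both without a call; with each library left out it ranged from -0.97 to -0.42 in the first and, against the libraries labelled NCI-BL2171, from -0.34 to 0.22 in RPMI-8226-R, positive without RPMI-8226-R replicate 1. TRAF3 against those libraries was positive with limma-trend (1.36 in RPMI-8226-R, 2.48 in RPMI-8226) and with the offset (1.49 and 3.01), both of which divide by the effective lengths given above. With 1 TPM added to both genes, the log2 difference of RELB over RELA against the libraries labelled NCI-BL2171 was 1.84 rather than 4.18 in RPMI-8226-R and 3.80 rather than 6.24 in RPMI-8226, where RELB itself is under 1 TPM. Deviations of same-numbered libraries correlated at 0.0471 to 0.0542, low values that cannot settle whether the numbers pair libraries. A replicate block called 8, 9 and 10 members and 13045, 15426 and 15295 genes, against 13177, 15540 and 15401 without it. The cause of the other changes was not tested. A line with 1 library left out was assumed to vary like the others. RELB, at 12 reads per library labelled NCI-BL2171, is the member limited by depth.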
